A study of Homo sapiens with 13 samples.

Results

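The interferon-stimulated genes described here are 46 genes, taken by symbol from the 23886 gene symbols of 2 deposited RNA-seq comparison tables. All 46 symbols were listed in both tables. A mean normalised read count of at least 10 was reached by 40 of the 46 in the table for siSOX9 and its controls and by 39 of the 46 in that for siY14 and its controls. The libraries were made from polyadenylated RNA of DLD-1 cells, an established human colorectal adenocarcinoma line (Dukes' type C). Every sample, controls included, was transfected with 50 nM of a small interfering RNA (siRNA) using INTERFERin and harvested 72 h later. In the siSOX9 table, 4 samples with siSOX9 stand against 3 with siCtrl, all from experiments 1 and 2. The siY14 table set 4 siY14 samples, 2 with each of the siRNAs numbered 9 and 10 and pooled by the authors, against 2 other siCtrl samples, of experiment 3. The tables share no control sample. Untransfected and interferon-treated cells were not analysed here. DLD-1 is 1 cell line, and the labels do not say whether samples of a group came from separate cultures, so p-values measure the spread between samples that may be technical repeats.

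Type I and type III interferons are cytokines that infected cells release and that neighbouring cells sense through receptors coupled to the kinases JAK1 and TYK2. Both types lead to a complex that holds STAT2 and IRF9 and binds the interferon-stimulated response element in the promoters of its target genes. The products of these genes detect double-stranded RNA, block translation, trap virus particles, attach the ubiquitin-like protein ISG15 to other proteins and load peptides onto class I molecules. Gut epithelium responds to type III interferon in particular, and many tumour lines keep some of these genes switched on without added interferon. SOX9 is a transcription factor active at the base of intestinal crypts, and Y14 belongs to the exon junction complex, which splicing leaves on mRNA.

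SOX9 itself had a mean of 9067 normalised counts with siSOX9 and 24468 with siCtrl, a log2 ratio of -1.43 (adjusted p = 1.40e-04) in the authors' deposited table. RBM8A, the gene of Y14, has a value of 0 throughout the deposited tables, so the Y14 knockdown was not checked. The printed arm means were turned back into whole reads of each library where a single set of reads gave the value. This gave library values in both arms for 33 of the 40 members with a mean of at least 10 for siSOX9 and for 31 of 39 for siY14. For 12 members in each table the set was taken as the single one only on the assumption that libraries of an arm lie close together, so their spread may be understated. In the siSOX9 table these were IFIH1, OAS1, IFIT5, STAT2, ISG15, HERC6, PARP9, DTX3L, PSMB8, TAP1, B2M and HLA-B, and in the siY14 table the same without HERC6 and B2M and with DDX58 and IRF1. Recovered libraries carry no sample name and are lettered by depth within their arm, so values within experiment 1 or 2 cannot be given. Depth, from size factors and summed means, was about 24850000 to 184100000 reads for siSOX9 and 24990000 to 178900000 for its siCtrl, and 49480000 to 71630000 for siY14 and 47190000 and 67100000 for its siCtrl. The 9 colon epithelial markers summed to 305995 normalised counts with siSOX9 and 347601 with siCtrl, with VIL1 lower, and to 317926 with siY14 and 428940 with siCtrl, with CDH1, VIL1 and LGALS4 lower, all called in the authors' deposited tables. The part of these markers in the results was not tested. Of 13 immune cell markers, 11 had a mean under 20 in each table, and the highest arm mean was 99.9 (CD14 with siCtrl in the siSOX9 table). The immune markers summed to 186 with siSOX9 and 216 with siCtrl, and to 151 with siY14 and 155 with siCtrl. The epithelial marker CDX1 was near 0 in each arm. The libraries are bulk RNA, so fewer cells with a transcript and less transcript per cell cannot be told apart.

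The promoters of these genes are known for a shared DNA element. The motif GAAANNGAAA, written for the interferon-stimulated response element, was searched on both strands from 250 bases before to 50 bases after each start in RefSeq's GRCh38.p14 annotation, and overlapping matches were kept. It was found for 25 of the 38 members with a promoter entry (65.8%), against 1195 of all 27305 genes with one (4.38%). OAS2, OASL, IFIT2, MX2, IRF7, USP18, IFITM2 and TRIM22 had no entry, and DDX58 was matched under its current symbol RIGI. The promoters of ISG15, SAMD9, IFIT1 and UBE2L6, each of which passed the test of the authors' deposited tables in 1 comparison, are given 5′ to 3′ on the strand of the gene, with matches in capitals. ISG15, at chr1:1013247-1013546 (+ strand), holds 2 overlapping matches, IFIT1, at chr10:89392373-89392672 (+ strand), holds 2 on the other strand, SAMD9, at chr7:93117930-93118229 (- strand), holds 1, and UBE2L6, at chr11:57567623-57567922 (- strand), holds none, nor does its other listed window.
ISG15: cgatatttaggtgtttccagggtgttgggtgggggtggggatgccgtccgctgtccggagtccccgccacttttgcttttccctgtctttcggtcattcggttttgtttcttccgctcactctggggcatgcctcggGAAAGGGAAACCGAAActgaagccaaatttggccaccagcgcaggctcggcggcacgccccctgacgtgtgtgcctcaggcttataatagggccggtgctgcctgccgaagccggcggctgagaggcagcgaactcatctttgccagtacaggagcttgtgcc
IFIT1: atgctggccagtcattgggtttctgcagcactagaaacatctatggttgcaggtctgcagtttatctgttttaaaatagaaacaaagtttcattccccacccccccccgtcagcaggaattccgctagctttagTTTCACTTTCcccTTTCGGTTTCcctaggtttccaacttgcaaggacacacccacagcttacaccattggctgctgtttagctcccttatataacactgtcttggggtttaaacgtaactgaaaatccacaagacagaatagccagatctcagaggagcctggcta
SAMD9: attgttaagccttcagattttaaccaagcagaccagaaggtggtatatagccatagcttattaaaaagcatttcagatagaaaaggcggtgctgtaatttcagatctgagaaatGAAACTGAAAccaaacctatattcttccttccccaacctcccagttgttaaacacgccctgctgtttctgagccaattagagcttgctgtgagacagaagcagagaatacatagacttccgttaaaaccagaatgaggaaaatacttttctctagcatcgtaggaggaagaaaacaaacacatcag
UBE2L6: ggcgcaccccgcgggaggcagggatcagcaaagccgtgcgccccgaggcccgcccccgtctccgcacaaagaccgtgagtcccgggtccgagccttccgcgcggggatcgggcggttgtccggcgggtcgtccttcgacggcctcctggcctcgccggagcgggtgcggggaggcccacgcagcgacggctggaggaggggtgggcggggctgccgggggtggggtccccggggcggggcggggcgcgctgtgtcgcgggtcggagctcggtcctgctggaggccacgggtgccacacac
The first bases of the ISG15 matches lie at -113 and -107 from the start, those of IFIT1 at -116 and -103, and that of SAMD9 at -136. DDX60 holds 2 matches, at -88 and -53. Among members with a mean of at least 10 in the siY14 table, the motif was found for 8 of the 14 with a promoter entry and a log2 ratio above 0 (57.1%), and for 13 of the 18 with one below 0 (72.2%). In the siSOX9 table these counts were 15 of 21 (71.4%) above 0 and 7 of 12 (58.3%) below 0. A match is a run of letters and no evidence that a factor binds there.

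**Figure D1:**
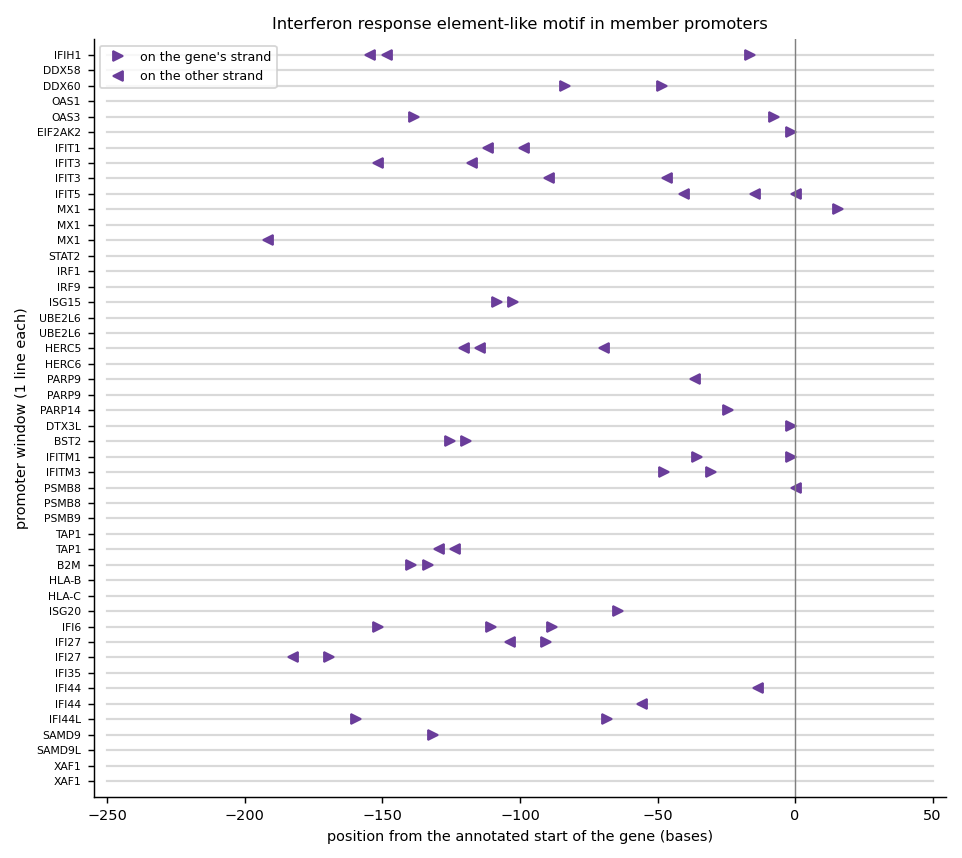
Matches to the motif GAAANNGAAA in the promoter windows of the 38 members with an entry, 1 line per window; the x axis is the position from the annotated start in bases, and arrowheads stand at the middle of a match and give its strand. For ISG15, IFIT1, DDX60 and SAMD9 the first bases of the matches lie between -136 and -53, and the lines of UBE2L6 are empty.

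In control cells the members spanned a wide range. Levels between genes are compared here as mean normalised count per kb of annotated exon, on a linear scale, and the tables were normalised separately. IFITM2 and IFITM3, membrane proteins that hinder the entry of viruses, were at 15619 and 12465 per kb in the siCtrl arm of experiments 1 and 2, and at 7182 and 7110.2 in that of experiment 3. Their sequences are close to each other, so reads may have been split between them. Of the pairs of values that follow, the first is from experiments 1 and 2 and the other from experiment 3. HLA-C, a class I heavy chain with close paralogues, was at 7917 and 7078 per kb. B2M, the light chain of class I molecules, was at 1585 and 1565, and OAS3, which makes the 2-5A messenger upon binding double-stranded RNA, at 1157 and 1544. At the low end, OASL, an OAS-like protein without that enzyme activity, was at 10.4 and 6.12 per kb. OAS2, another of the 2-5A synthetases, was at 5.09 and 7.96. The order of the 46 members was similar in both sets of control cells (Spearman's rho 0.966 across the 46 genes, which are not independent replicates). ISG15 was at 1548 per kb in experiments 1 and 2 (rank 5) and at 653 in experiment 3 (rank 10), and IRF7 at 781 (rank 8) and 213 (rank 21).

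Members whose mean was under 10 in both tables were BST2, IFI44, IFI44L, SAMD9L, TRIM22 and XAF1, and IFI27 was under 10 in the siY14 table only. Several of these, such as IFI44L and XAF1, are strongly induced by interferon in other cells. Of the 6, TRIM22 had the highest means, 8.21 with siSOX9 and 5.68 with siCtrl, and 2.75 with siY14 and 1.98 with siCtrl. BST2, which tethers budding virus particles to the membrane, had 1.04 with siSOX9 and 0.0967 with siCtrl. IFI44L, SAMD9L and XAF1 were listed at 0 in the siY14 table.

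**Figure D2:**
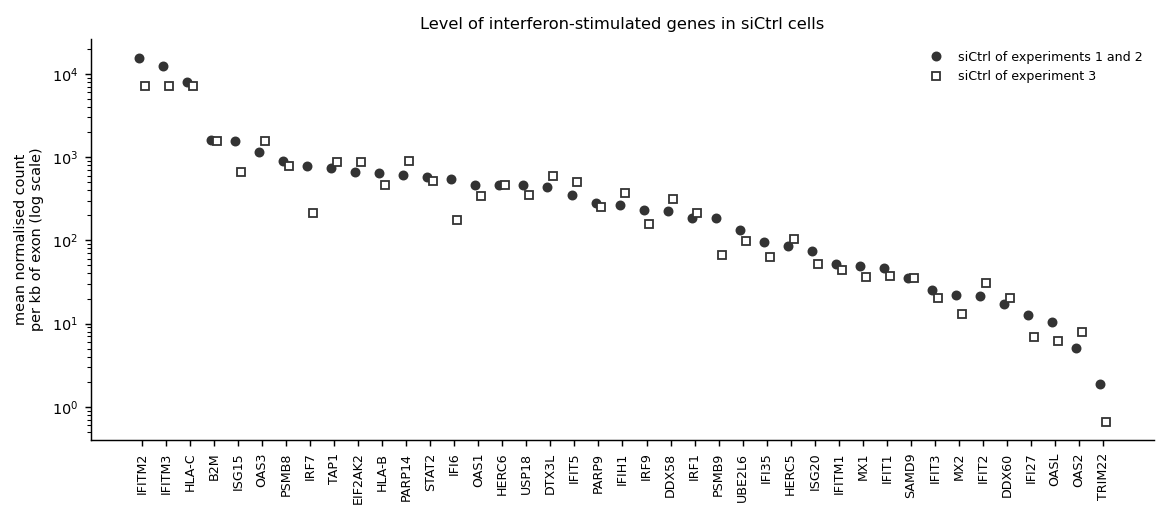
Mean normalised count per kb of annotated exon in siCtrl cells (y axis, log scale) for the 41 members with the highest level in experiments 1 and 2, ordered by that level. Filled circles are siCtrl of experiments 1 and 2 and open squares siCtrl of experiment 3; IFITM2, IFITM3 and HLA-C lie above the rest in both, and IRF7, IFI6, PSMB9 and ISG15 are lower in experiment 3.

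The siSOX9 comparison asked which transcripts change when SOX9 is reduced. By the adjusted p of the authors' deposited table (threshold 0.05), SAMD9 alone passed, 1 of the 46 tested (2.17%), against 3.47% of all genes (1.19% higher and 2.27% lower). The 40 members with a mean of at least 10 had log2 ratios above 0 in 23 cases and below 0 in 17. Their median log2 ratio was 0.03, against 0.01 for all genes with such a mean. The median size of the log2 ratio, taken without sign, was 0.14 for the members and 0.17 for all genes.

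**Figure D3:**
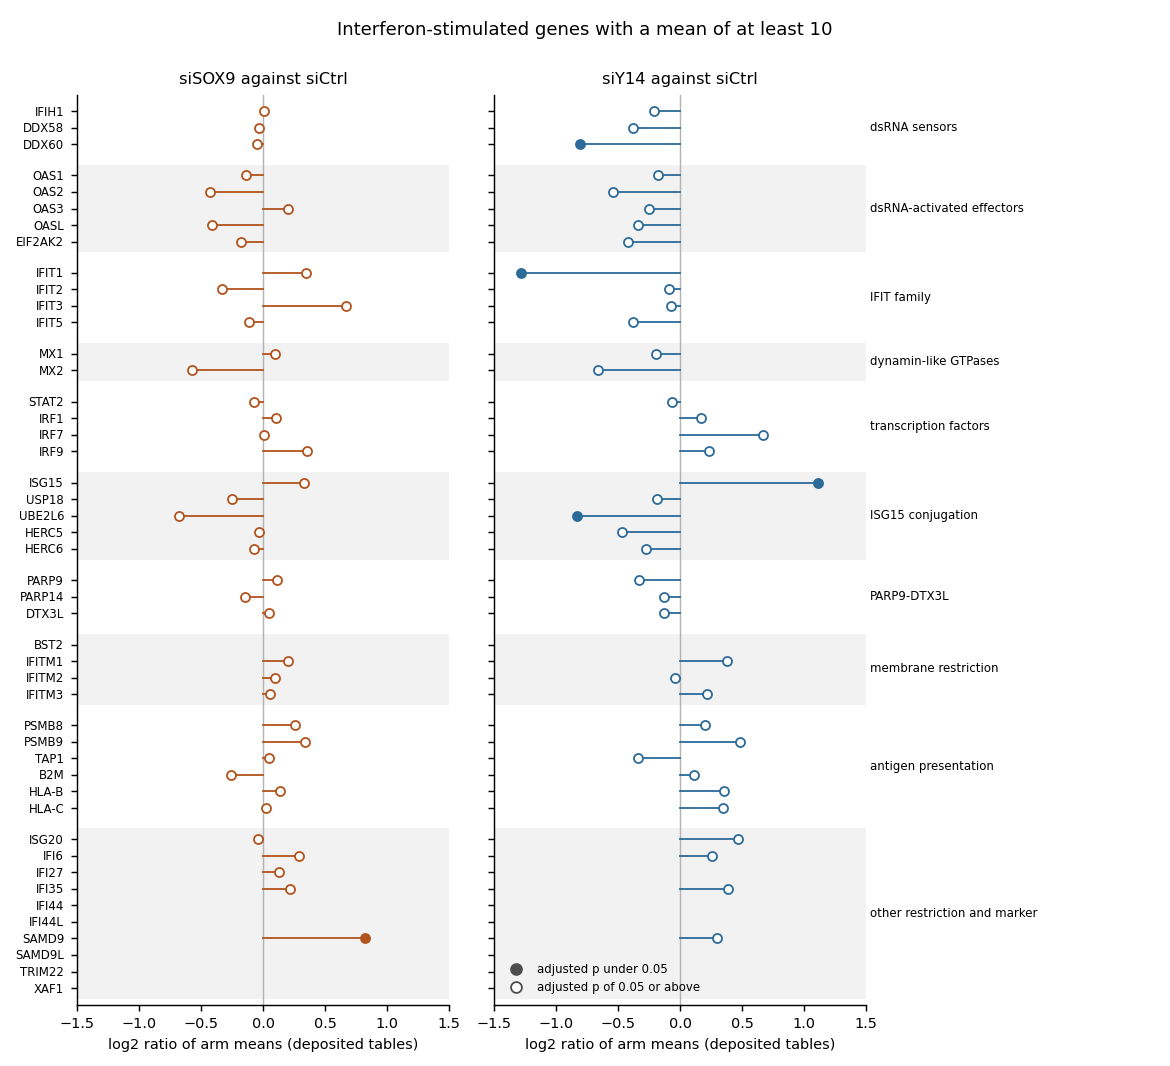
Log2 ratio of arm means (x axis, no unit) in the authors' deposited tables for members with a mean of at least 10, grouped by role down the page, siSOX9 on the left and siY14 on the right. Filled points passed an adjusted p of 0.05: SAMD9 with siSOX9, and ISG15, IFIT1, UBE2L6 and DDX60 with siY14; genes with no point had a mean under 10.

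SAMD9, a cytoplasmic protein that restricts poxviruses, had 485, 438, 431 and 373 normalised counts in siSOX9 libraries a to d, against 247, 239.7 and 245 in siCtrl libraries a to c. All 4 siSOX9 libraries lay above the 3 siCtrl libraries, whose values were within a narrow range. It rose by a log2 ratio of 0.82 (adjusted p = 0.00104) in the authors' deposited table, and by 0.86 (SE 0.116, adjusted p = 0.00105) in limma-voom on the recovered reads. SAMD9 passed limma-voom in all 14 alternative fits. Its neighbour and paralogue SAMD9L was close to 0, at 1.29 with siSOX9 and 2.13 with siCtrl.

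Limma-voom on the recovered reads passed 5 of 33 members (15.2%), against 21.6% of all genes tested this way (9.05% higher and 12.5% lower), namely SAMD9, IFIT3 and ISG15 upward and UBE2L6 and USP18 downward. IFIT3, a member of the IFIT family of RNA-binding proteins that stabilises IFIT1, had 133, 101, 94.4 and 93.2 normalised counts with siSOX9, against 68.2, 72.2 and 58.1 with siCtrl. The arms did not overlap, and siSOX9 library a was the highest. The log2 ratio was 0.75 (SE 0.183, adjusted p = 0.0186) in limma-voom, while the log2 ratio of the authors' deposited table was 0.67 (adjusted p = 0.0787). UBE2L6, the E2 enzyme that carries ISG15 to its substrates, had 136, 157, 157 and 149 normalised counts with siSOX9, against 225, 225 and 266 with siCtrl. All siSOX9 libraries lay below all siCtrl libraries. UBE2L6 fell, with a log2 ratio of -0.68 (SE 0.122, adjusted p = 0.00441) in limma-voom, and of -0.67 (adjusted p = 0.0668) in the authors' deposited table, where it missed the threshold.

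The rest of the ISG15 system was closer to 0. ISG15, the modifier itself, had 2059, 1732, 1789 and 1761 normalised counts with siSOX9, against 1628, 1404 and 1339 with siCtrl. The arms did not overlap, and the deepest library was the highest of its arm on both sides. Its log2 ratio was 0.33 (SE 0.09098, adjusted p = 0.0308) in limma-voom, and 0.33 (adjusted p = 0.611) in the authors' deposited table. The spread of ISG15 between libraries may be understated, as given above. USP18, the protease that removes ISG15 and that also holds back the type I receptor, had 876, 813, 821 and 771 normalised counts with siSOX9, against 1018, 990.1 and 915 with siCtrl. The arms did not overlap, but the difference was small, at -0.25 (SE 0.0768, adjusted p = 0.04998) in limma-voom, and it kept the call in 4 of 14 alternative fits. HERC5, the main human ISG15 ligase, had 359, 261, 281 and 315 with siSOX9 and 343, 306 and 284 with siCtrl. Its arms overlapped, and HERC6, a related ligase, likewise had 1709 ± 147 (SD, n = 4) with siSOX9 and 1799 ± 123 (SD, n = 3) with siCtrl.

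The sensors of double-stranded RNA differed little with siSOX9. IFIH1, which encodes MDA5, had 1407, 1028, 1056 and 1011 normalised counts with siSOX9, against 1298, 1083 and 979.8 with siCtrl. DDX58, which encodes RIG-I, had 1036, 894, 940.2 and 949 with siSOX9, against 1035, 964 and 924 with siCtrl. DDX60, a helicase related to both, had 141, 93.9, 64.02 and 99.5 with siSOX9, against 135, 89.9 and 85.1 with siCtrl. In all 3 genes the deepest library was the highest of each arm, and the arms overlapped. OAS1 had 1710.2, 1887, 1796 and 1608 with siSOX9 and 1805, 2044 and 1914 with siCtrl, and its arms overlapped too. Of the remaining effectors, log2 ratios in the authors' deposited table were 0.20 for OAS3 (adjusted p = 1), -0.42 for OAS2, -0.41 for OASL and -0.18 for EIF2AK2, the kinase PKR that shuts down translation. None of the 5 effectors passed the test of the authors' deposited table, and OAS3 and EIF2AK2 were not tested by limma-voom. OAS2 was at 26.8, 20.998, 30.3 and 16.6 normalised counts with siSOX9 and 32.8, 23.2 and 39.4 with siCtrl, and OASL at 25.7, 24.7, 35.4 and 16.6 with siSOX9 and 31.6, 47.7 and 22.8 with siCtrl. The arms of both genes overlapped.

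Within the IFIT family the remaining members pointed both ways, and none passed the test of the authors' deposited table or limma-voom without a depth term. IFIT1, which binds viral RNA that lacks the cap methylation of host mRNA, had 325, 272, 244 and 253 normalised counts with siSOX9, against 248, 197 and 199 with siCtrl. The lowest siSOX9 library lay just under the highest siCtrl library, and limma-voom gave 0.34 (SE 0.149, adjusted p = 0.1399). IFIT2 had 77.7, 87.7, 57.3 and 60.1 with siSOX9, against 97.5, 96.7 and 72.7 with siCtrl, with overlap. IFIT5 had 1314 ± 179 (SD, n = 4) with siSOX9 and 1423 ± 258 (SD, n = 3) with siCtrl. Library values of IFIT5 overlapped between the arms. The MX genes encode dynamin-like GTPases that block incoming nucleocapsids. MX2 had 48.7, 50.6, 35.4 and 43.5 normalised counts with siSOX9, against 62.1, 64.01 and 72.7 with siCtrl, and its arms did not overlap, but limma-voom gave -0.47 (SE 0.172, adjusted p = 0.0835). MX1 had 225, 226, 233 and 168 with siSOX9, against 193, 203 and 201 with siCtrl, and library d stood below the other 3 siSOX9 libraries.

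Among the transcription factors, STAT2 had 1841 ± 184 normalised counts with siSOX9 (SD, n = 4) and 1934 ± 174 with siCtrl (SD, n = 3). IRF9, its DNA-binding partner, had 485, 637, 607 and 605 with siSOX9, against 419, 516 and 432 with siCtrl, whose ranges overlapped, and limma-voom gave 0.32 (SE 0.134, adjusted p = 0.1297). IRF1, an activator of early and class I genes, had 753 ± 70.3 with siSOX9 (SD, n = 4) and 702 ± 23.3 with siCtrl (SD, n = 3). IRF7, the factor that amplifies interferon production, had arm means of 1685 with siSOX9 and 1672 with siCtrl in the authors' deposited table (log2 ratio 0.01, adjusted p = 1). No transcription factor of the list passed the test of the authors' deposited table or limma-voom on all libraries without a depth term. IRF9 passed limma-voom without siSOX9 library a, and without the deepest library of each arm. IRF7 was not tested by limma-voom, since its siSOX9 libraries were not recovered. The ADP-ribosyltransferase PARP9 and its ligase partner DTX3L, which act as a complex and share a promoter region, had log2 ratios of 0.12 and 0.05 in limma-voom, and neither passed.

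Antigen presentation genes had log2 ratios above 0 for 5 of 6 members and below 0 for B2M. None passed the authors' test or limma-voom on all libraries, again without a depth term, and HLA-C was not tested by limma-voom. Some fits that left libraries out passed B2M, PSMB8 or PSMB9. PSMB9, an immunoproteasome subunit, had 209, 222, 206 and 222 normalised counts with siSOX9, against 117, 202 and 191 with siCtrl. The arms did not overlap, but siCtrl library a was well below the other siCtrl libraries, and limma-voom gave 0.54 (SE 0.193, adjusted p = 0.0769). PSMB8, another immunoproteasome subunit, had 1963, 1617, 1548 and 1594 with siSOX9, against 1625, 1292 and 1293 with siCtrl, and TAP1, which transports peptides into the endoplasmic reticulum, had 2247 ± 269 with siSOX9 (SD, n = 4) and 2179 ± 276 with siCtrl (SD, n = 3). B2M had 2898, 3345, 3014 and 3319.7 with siSOX9 and 3339, 3815 and 4154 with siCtrl. The siSOX9 and siCtrl libraries of PSMB8, TAP1 and B2M overlapped. HLA-B, another class I heavy chain, had a limma-voom log2 ratio of 0.11 (SE 0.0757, adjusted p = 0.329), and HLA-C had 0.02 (adjusted p = 1) in the authors' deposited table. Of the 5 other members with a mean of at least 10, IFI6, a mitochondrial and endoplasmic reticulum protein, had 519, 567, 588 and 624 with siSOX9 and 442, 499.8 and 469 with siCtrl, without overlap, at 0.27 (SE 0.1005, adjusted p = 0.0898) in limma-voom. ISG20, an exonuclease that degrades RNA, had 112, 173, 153 and 191 with siSOX9 and 124, 200.2 and 162 with siCtrl. IFITM1, a relative of IFITM2 and IFITM3, had 35.2, 67.9, 64.02 and 80.8 with siSOX9 and 40.9, 81.7 and 39.4 with siCtrl. Both genes overlapped between the arms, as did IFI27 and IFI35, and for each of the 4 the adjusted p of the authors' deposited table was 1.

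Over the 33 recovered members, siSOX9 and siCtrl libraries did not overlap in 8 (24.2%), against 30.4% of recovered genes at or over that mean (13.9% higher and 16.4% lower). Those 8 were SAMD9, IFIT3, ISG15, PSMB9 and IFI6, which were higher with siSOX9, and UBE2L6, USP18 and MX2, which were lower. The labels place 1 sample of each arm in experiment 2, and 1 library of each arm had several times the depth of the rest, but the recovered libraries do not show which sample they are. These deepest siSOX9 and siCtrl libraries deviated from their arms together, with a correlation of deviations of 0.83 across 8712 genes, which are not independent. In 19 of 33 members (57.6%) the deepest library was above, or below, all others of its arm on both sides, against 54.3% of recovered genes. ISG15, IFIH1, TAP1 and PSMB8 were higher in these deep libraries, and IRF9, B2M and IFI6 lower. Without this pair of libraries limma-voom passed 7 of 33 members (21.2%), against 3104 of 9809 genes (31.6%). The 7 were B2M, IRF9, ISG15, PSMB8, SAMD9, UBE2L6 and USP18, and IFIT3 missed. With single libraries left out, IFIT3 missed without siSOX9 library a, at 0.53 (adjusted p = 0.0563) in limma-voom, and without siCtrl library a, at 0.77 (adjusted p = 0.0997). The log2 ratio of ISG15 in limma-voom dropped to 0.19 (adjusted p = 0.151) without siSOX9 library a, and it also missed without siCtrl library b, at 0.30 (adjusted p = 0.0693), or siCtrl library c, at 0.30 (adjusted p = 0.0672). USP18 missed without any single library other than siSOX9 library a, while SAMD9 and UBE2L6 passed in each of these fits. With the depth class as a term, a fit added after the data were seen, limma-voom passed 13 of 33 members (39.4%), against 4928 of 9799 genes (50.3%). The 13 were the 5 named as passing limma-voom above together with B2M, PSMB8, PSMB9, IFIT1, IRF9, MX2, OAS1 and IFI6, which did not pass in the fit of all 7 libraries without that term.

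The siY14 comparison asked what follows when Y14 is reduced. Of the 43 members with reads, 4 passed the adjusted p of the authors' deposited table (9.3%), against 9.16% of all genes (3.81% higher and 5.35% lower). ISG15 rose, and IFIT1, UBE2L6 and DDX60 fell. The 39 members with a mean of at least 10 had log2 ratios above 0 in 15 cases and below 0 in 24, with a median of -0.13, against -0.0013 for all genes. The median size without sign was 0.33 for the members and 0.29 for all genes. Log2 ratios were below 0 for all 3 sensors, all 5 double-stranded RNA effectors, all 4 IFIT genes, both MX genes and all 3 genes of the PARP9 group. They were above 0 for 5 of 6 antigen presentation genes, for 3 of 4 transcription factors and for all 4 of the other members measured, ISG20, IFI6, IFI35 and SAMD9. Most single members did not pass, and no test was made on these role counts.

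ISG15 had 1144, 1538, 1182 and 1454 normalised counts in siY14 libraries a to d, against 632 and 598 in siCtrl libraries a and b. Every siY14 library was above both siCtrl libraries, and libraries b and d were the highest. The log2 ratio was 1.11 (adjusted p = 3.04e-05) in the authors' deposited table and 1.1 (SE 0.177, adjusted p = 0.007403) in limma-voom. The rest of the ISG15 system had log2 ratios below 0. UBE2L6 had 108, 74.1, 134 and 81.1 with siY14, against 167 and 187 with siCtrl, so the arms did not overlap and libraries b and d were the lowest. It fell, with a log2 ratio of -0.83 (adjusted p = 0.0137) in the authors' deposited table and of -0.87 (SE 0.236, adjusted p = 0.0358) in limma-voom. HERC5 had 274, 242, 312 and 248 with siY14, against 343 and 401 with siCtrl, without overlap. Limma-voom gave -0.46 (SE 0.1396, adjusted p = 0.0474) for HERC5, and the authors' deposited table -0.47 (adjusted p = 0.134). The arms of USP18 overlapped, at 732, 519, 813 and 587 with siY14 and 734 and 769.7 with siCtrl. HERC6 had arm means of 1479 with siY14 and 1785 with siCtrl (adjusted p = 0.6697) in the authors' deposited table.

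**Figure D4:**
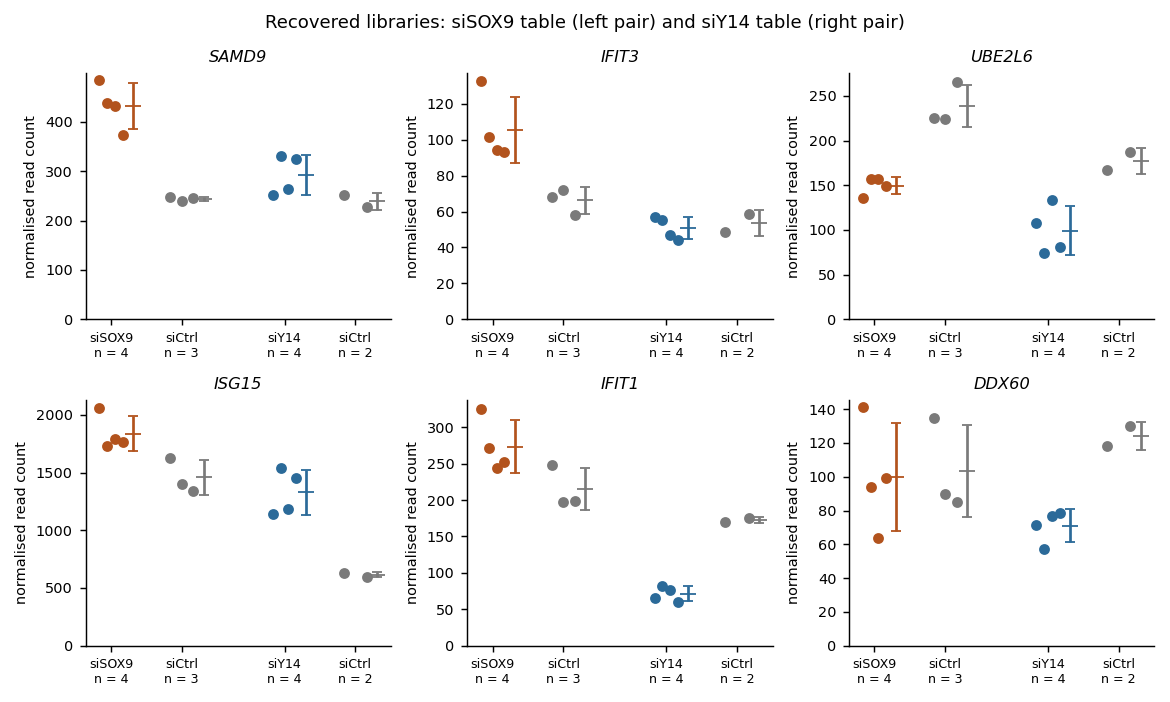
Normalised read count per recovered library (y axis, linear from 0) for 6 members in siSOX9, siCtrl of experiments 1 and 2, siY14 and siCtrl of experiment 3; points run from library a on the left, and the bar beside them is mean ± SD. SAMD9 is higher in all siSOX9 libraries than in their siCtrl, ISG15 is higher and IFIT1 and DDX60 lower in all siY14 libraries than in theirs, and UBE2L6 is lower in both knockdowns.

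IFIT1 had 65.6, 82.3, 76.97 and 60.2 normalised counts with siY14, against 170.3 and 176 with siCtrl. All siY14 libraries lay far below both siCtrl libraries, and they did not split by pair. IFIT1 fell, with a log2 ratio of -1.28 (adjusted p = 5.49e-05) in the authors' deposited table and -1.28 (SE 0.159, adjusted p = 0.00326) in limma-voom. The other IFIT genes lay closer to 0. IFIT5 had 1384, 1753, 1399 and 1712 with siY14, against 2089 and 1975 with siCtrl, without overlap, at -0.40 (SE 0.112, adjusted p = 0.0388) in limma-voom. The values of IFIT3 overlapped, at 56.8, 55.4, 46.9 and 44.03 with siY14 and 48.4 and 58.6 with siCtrl. IFIT2 had 76.04, 158, 84.8 and 154 with siY14, against 117 and 134 with siCtrl. Its libraries a and c lay below both siCtrl libraries and its libraries b and d above them.

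The sensors of double-stranded RNA were lower in every siY14 library than in either siCtrl library, as were 30.2% of recovered genes. DDX60 had 71.2, 57.03, 76.97 and 78.8 normalised counts with siY14, against 118 and 129.98 with siCtrl. It fell, with a log2 ratio of -0.81 (adjusted p = 0.0279) in the authors' deposited table and -0.82 (SE 0.174, adjusted p = 0.0174) in limma-voom. DDX58 had 1089, 975, 1117 and 963 with siY14, against 1369 and 1328 with siCtrl. It passed limma-voom at -0.39 (SE 0.0843, adjusted p = 0.0186) but not the test of the authors' deposited table, where its adjusted p was 0.156. IFIH1 had 1413, 1347, 1363 and 1289.5 with siY14, against 1586 and 1537 with siCtrl, and missed both tests, at -0.21 (SE 0.0633, adjusted p = 0.0506) in limma-voom. Among the effectors, EIF2AK2 had arm means of 6714 with siY14 and 8976 with siCtrl, a log2 ratio of -0.42 (adjusted p = 0.0905) in the authors' deposited table. OAS3 had 10188 with siY14 and 12130.1 with siCtrl, at -0.25 (adjusted p = 0.673) in the authors' deposited table. OAS2 had 39.2, 29.3, 41.3 and 26.6 with siY14, against 48.4 and 50.97 with siCtrl, and OASL had 14.4, 13.8, 23.4 and 11.6 with siY14, against 17.03 and 22.9 with siCtrl. Neither passed, although the arms of OAS2 did not overlap.

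MX2 had 32.02, 17.1, 29.003 and 23.2 normalised counts with siY14, against 39.4 and 40.8 with siCtrl, without overlap, and MX1 had 126 ± 4.91 with siY14 (SD, n = 4) and 145 ± 15.6 with siCtrl (SD, n = 2). Neither MX gene passed, at -0.70 (SE 0.2802, adjusted p = 0.103) for MX2 and -0.20 (SE 0.132, adjusted p = 0.278) for MX1 in limma-voom. PARP9 had 1673, 1560.2, 1646 and 1478 with siY14, against 2032 and 1957 with siCtrl. PARP9 was lower in each siY14 library and passed limma-voom at -0.33 (SE 0.0648, adjusted p = 0.01397), but not the test of the authors' deposited table (adjusted p = 0.2402). DTX3L had 3208, 3199, 3195 and 3132 with siY14, against 3494 and 3455 with siCtrl, a small difference of -0.13 (SE 0.0315, adjusted p = 0.0283) in limma-voom. PARP14, which modifies proteins with ADP-ribose, had arm means of 6429 with siY14 and 7021 with siCtrl (adjusted p = 0.781) in the authors' deposited table.

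Of the transcription factors, IRF7 had the largest ratio. It had 564, 903, 563 and 855 normalised counts with siY14, against 453 and 457 with siCtrl. All siY14 libraries were higher, but those of b and d were far above those of a and c. IRF7 passed neither limma-voom, at 0.63 (SE 0.251, adjusted p = 0.101), nor the test of the authors' deposited table, at 0.67 (adjusted p = 0.21005). IRF9 had 287, 413, 299 and 443 with siY14, against 310.1 and 305 with siCtrl, with libraries a and c below both siCtrl libraries and b and d above them. IRF1 had 966, 816, 960.4 and 868 with siY14, against 796 and 805 with siCtrl, and STAT2 had 1692 ± 81.02 with siY14 (SD, n = 4) and 1772 ± 62.6 with siCtrl (SD, n = 2). Neither IRF1 nor STAT2 passed a test.

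Among antigen presentation genes, TAP1 had the only log2 ratio below 0. TAP1 had 2169.96, 1904, 2282 and 1858 normalised counts with siY14, against 2615 and 2570.4 with siCtrl, and passed limma-voom at -0.34 (SE 0.0834, adjusted p = 0.0256). PSMB8 had 1375, 1408, 1388 and 1423 with siY14, against 1189 and 1239.95 with siCtrl, without overlap, and passed narrowly at 0.21 (SE 0.0627, adjusted p = 0.0488). PSMB9 had 88.05, 84.7, 85.9 and 88.1 with siY14, against 65.4 and 58.6 with siCtrl, without overlap, and just missed at 0.47 (SE 0.149, adjusted p = 0.0548). HLA-B had 839, 1040.4, 779 and 1040.4 with siY14, against 756 and 692 with siCtrl, also without overlap, and did not pass. In HLA-B, libraries b and d were the highest. HLA-C had arm means of 14010.1 with siY14 and 10999 with siCtrl, a log2 ratio of 0.35 (adjusted p = 0.2102) in the authors' deposited table. B2M had 4027 with siY14 and 3721 with siCtrl (adjusted p = 0.8402) in the authors' deposited table. None of HLA-B, HLA-C and B2M passed the test of the authors' deposited table, and HLA-C and B2M were not tested by limma-voom. ISG20 had 161, 142, 175 and 133 with siY14, against 104 and 117 with siCtrl, and IFI35 had 105, 90.4, 108 and 102 with siY14, against 76.2 and 79.01 with siCtrl. Neither passed, although the arms of neither overlapped. SAMD9, which rose with siSOX9, had 252, 331, 264 and 324 with siY14, against 251 and 227 with siCtrl. Its libraries b and d were above the rest and a was next to the higher siCtrl library, and limma-voom gave 0.28 (SE 0.161, adjusted p = 0.229). IFI6 had 156, 210.2, 147 and 207 with siY14, against 142 and 159 with siCtrl, and IFITM1 had 64.8, 68.4, 44.6 and 63.7 with siY14, against 51.98 and 40.8 with siCtrl. Both overlapped between the arms. IFITM3 had arm means of 10042 with siY14 and 8618 with siCtrl, with a p of 0.502 after adjustment in the authors' deposited table. IFITM2 had arm means of 7393 with siY14 and 7591 with siCtrl, with a p of 1 after adjustment in the authors' deposited table.

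On the recovered reads limma-voom passed 11 of 31 members (35.5%), with ISG15 and PSMB8 higher and 9 lower. The share was 27.8% for all genes tested this way (12.6% higher and 15.2% lower). The 9 were DDX58, DDX60, IFIT1, IFIT5, UBE2L6, HERC5, PARP9, DTX3L and TAP1. The libraries of siY14 and siCtrl did not overlap in 22 of 31 members (71%), 9 higher and 13 lower, against 60.1% of all recovered genes (29.9% higher and 30.2% lower). These calls rest on 2 siCtrl libraries. For ISG15, PSMB8, DDX58, IFIT5, PARP9, DTX3L and TAP1 the spread between libraries may also be understated, as given above. Without siCtrl library a limma-voom passed 0 of 31 members and 79 of 8621 genes, and without siCtrl library b it passed IFIT1 alone and 390 of 8629 genes. At an unadjusted p under 0.05 the fit without library a counted 7 of 31 members (22.6%), against 21.2% of all genes. The fit without library b counted 9 of 31 members (29%), against 26.5% of all genes. Without siY14 library d it passed 5 of 31 members (16.1%), namely DDX58, DDX60, IFIT1, ISG15 and PARP9, against 1514 of 8611 genes (17.6%). Without siY14 library b it passed these with IFIT5 and TAP1, 7 of 31 (22.6%), against 1841 of 8595 genes (21.4%).

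The 4 siY14 libraries formed pairs. Deviations from the arm mean correlated at 0.79 both for libraries a and c and for b and d, and between -0.90 and -0.89 across these pairs, over 7548 genes. Deviations from a mean of 4 sum to 0, which by itself pulls such correlations below 0. The labels give 2 samples for each of 2 siRNAs, but the recovered libraries carry no sample name, so the pairs were not assigned to siRNAs. In 25 of 31 members (80.6%) libraries a and c lay apart from b and d, against 80.1% of recovered genes. Relative to siCtrl, both pairs were above in 9 members and both below in 13. OAS1 had 1541, 985, 1524 and 934 normalised counts in libraries a to d, against 1463 and 1361 in siCtrl libraries a and b, so a and c lay above both controls and b and d below. IFIT2 and IRF9 lay the other way round. For ISG15 the log2 ratio to the siCtrl mean was 0.92 for a and c and 1.28 for b and d. For UBE2L6 it was -0.55 and -1.19, and for IRF7 0.31 and 0.95. IFIT1 was alike in both pairs, at -1.28 and -1.28. With each pair summed to 1 library, limma-voom passed 0 of 31 members and 21 of 8605 genes. At an unadjusted p under 0.05 that fit counted 8 of 31 members (25.8%), against 25.9% of all genes. The ratios barely moved in that fit, at -1.27 for IFIT1 (adjusted p = 0.0812) and 1.1 for ISG15 (adjusted p = 0.102). The p-values of the authors' deposited table also treat the 4 siY14 libraries as 1 arm.

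**Figure D5:**
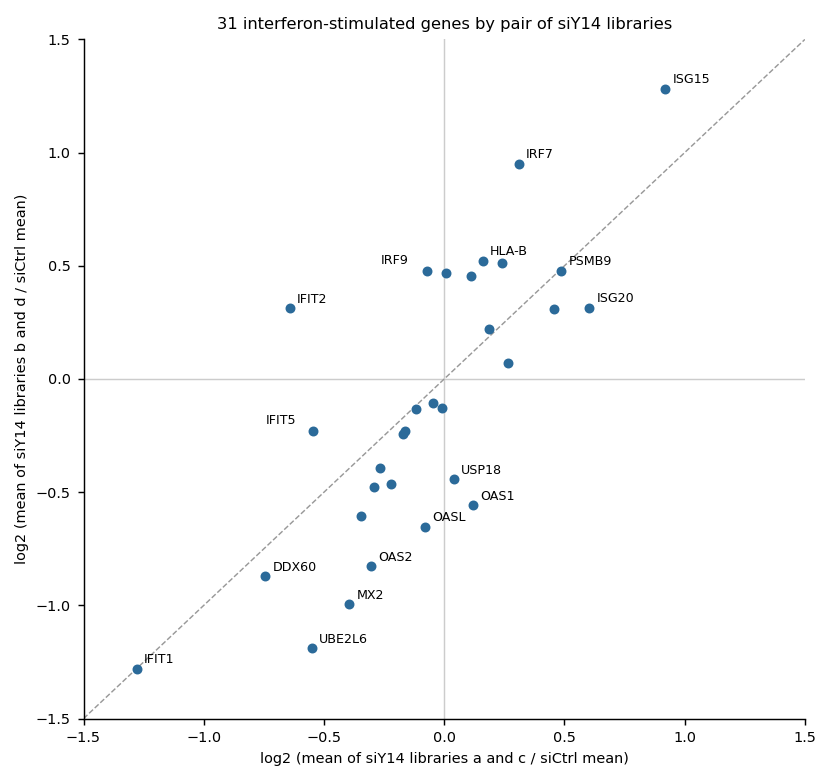
Log2 ratio to the siCtrl mean for the mean of siY14 libraries a and c (x axis) and of libraries b and d (y axis), 1 point for each of the 31 recovered members with a mean of at least 10; the dashed line marks equal ratios. IFIT1 lies near the line at the low end and ISG15 above it at the high end, while IFIT2 and OAS1 lie on different sides of 0 in the pairs.

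The change with siSOX9 and the change with siY14, each against its own siCtrl, were compared in 1 limma-voom model of both tables. They differed for 4 of 30 members (13.3%), against 23.1% of all genes tested this way, namely IFIT1, ISG15, PARP9 and SAMD9. For IFIT1 the siSOX9 log2 ratio minus the siY14 one was 1.62 (SE 0.242, adjusted p = 4.23e-04), as it was at 0.34 with siSOX9 and -1.28 with siY14. For ISG15 the difference was -0.78 (SE 0.196, adjusted p = 0.0116), since it was higher in both knockdowns but by more with siY14. For PARP9 it was 0.45 (SE 0.113, adjusted p = 0.0112) and for SAMD9 0.59 (SE 0.203, adjusted p = 0.0491). The spread of ISG15 and PARP9 between libraries may be understated, as given above. UBE2L6, lower in both knockdowns, differed between them by 0.20 (SE 0.257, adjusted p = 0.629), which does not show that the changes were alike. STAT2, with ratios near 0 in both, differed by 0.0012 (SE 0.1305, adjusted p = 0.996). IFIT1 was called in all 15 alternative fits. ISG15 was called in 12 of the 15, PARP9 in 13 and SAMD9 in 4, and SAMD9 missed with the siY14 pairs summed (adjusted p = 0.0955). Without siCtrl library a of experiment 3 only IFIT1 remained, without library b IFIT1 and PARP9, and without siCtrl library a of experiments 1 and 2 ISG15, PARP9 and SAMD9 missed while DDX58 and TAP1 passed.

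Genes that act around the members were read from a list of 125 ligands, receptors, signalling and further induced genes. With siSOX9, 4 of the 102 with reads rose and 2 fell by the test of the authors' deposited table (together 5.88%, against 3.47% of all genes). With siY14, 9 of 99 rose and 4 fell (together 13.1%, against 9.16% of all genes). IFNLR1, JAK2, RSAD2 and CXCL10 are named here after their values were seen. Of 21 interferon genes, 18 were listed at 0 in the table for siSOX9 and 19 in that for siY14, and the highest mean was 0.123 (IFNL3) for siSOX9 and 0.425 (IFNG) for siY14.

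All 6 receptor chains were measured. IL10RB, a chain of the type III receptor, had 1093, 1102, 950.3 and 1063 normalised counts with siSOX9, against 659.5, 705 and 670.5 with siCtrl, and rose at a log2 ratio of 0.63 (adjusted p = 0.0129) in the authors' deposited table. Its partner IFNLR1 had 777, 787, 758 and 640.3 with siSOX9, against 1083, 1047 and 998 with siCtrl, with every siSOX9 library the lower. IFNLR1 fell in limma-voom, at -0.49 (SE 0.0825, adjusted p = 0.00306), but not by the test of the authors' deposited table (adjusted p = 0.176). IFNGR2, a chain of the interferon gamma receptor, had 1129, 1182, 1224 and 1193 with siY14, against 1760.1 and 1736 with siCtrl, and fell at -0.56 (adjusted p = 0.0185) in the authors' deposited table. Its partner IFNGR1 had log2 ratios of 0.33 with siSOX9 and 0.09 with siY14 in the authors' deposited tables. For the type I receptor, IFNAR1 had 0.20 with siSOX9 and -0.47 with siY14 in the authors' deposited tables, and IFNAR2 -0.14 with siSOX9 and -0.12 with siY14. None of IFNGR1, IFNAR1 and IFNAR2 passed there.

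JAK1 had log2 ratios of -0.0013 with siSOX9 and -0.41 with siY14 (adjusted p = 0.118), and TYK2 0.24 with siSOX9 and 0.27 with siY14, in the authors' deposited tables. These kinases pass on the signal of the receptors, and neither passed in either comparison. JAK2, which serves the gamma receptor, had 476, 535, 474 and 520.2 normalised counts with siY14, against 698 and 729 with siCtrl, at -0.51 (adjusted p = 0.0619) in the authors' deposited table.

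Among 16 sensing adaptors and kinases, TRAF3, a ubiquitin ligase downstream of these sensors, had 1849, 1626, 1924 and 1662 normalised counts with siSOX9, against 2871, 2397 and 2518 with siCtrl. It fell at a log2 ratio of -0.56 (adjusted p = 0.0254) in the authors' deposited table. With siY14, TICAM1, the adaptor of TLR3, had 684, 811, 678 and 875, against 406 and 449 with siCtrl, and rose at 0.83 (adjusted p = 0.00104) in the authors' deposited table. IRF3, the factor that first switches on the interferon beta gene, had 2890.3, 3150.4, 2789 and 3229 with siY14, against 2024 and 2044 with siCtrl, and rose at 0.57 (adjusted p = 0.0241) in the authors' deposited table. In each of these genes the arms did not overlap. Among 12 genes that restrain the pathway, SOCS1, an inhibitor of the JAK kinases, had 20.01, 21.997, 12.3 and 24.3 with siY14, against 6.27 and 3.82 with siCtrl, and rose at 1.96 (adjusted p = 0.0452) in the authors' deposited table, at counts that are low. PIAS4, a SUMO ligase, rose at 0.68 (adjusted p = 0.0466) and PTPN11, a phosphatase, fell at -0.81 (adjusted p = 1.46e-04) with siY14 in the authors' deposited table.

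Antigen presentation beyond the members held 17 genes, 1 of them listed at 0 in the siSOX9 table. By the authors' test 1 gene was called with siSOX9 and 3 with siY14, against 3.47% and 9.16% of all genes with reads. ERAP1, which trims peptides for class I molecules, rose in both comparisons. It had 1246, 1073, 1173 and 1229 normalised counts with siSOX9, against 798, 739 and 824 with siCtrl, and 1508, 1462, 1453 and 1417 with siY14, against 815 and 865 with siCtrl. The log2 ratios were 0.58 (adjusted p = 0.0356) with siSOX9 and 0.80 (adjusted p = 9.35e-04) with siY14 in the authors' deposited tables. PSMB10, another immunoproteasome subunit, had 876, 1098, 831 and 1065 with siY14, against 531 and 542 with siCtrl, and rose at 0.85 (adjusted p = 6.35e-04) in the authors' deposited table. HLA-E, a ligand of natural killer cell receptors, had arm means of 7273 with siY14 and 4902 with siCtrl and rose at 0.57 (adjusted p = 0.0371) in the authors' deposited table.

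Of 48 further induced genes, GBP3, a guanylate-binding GTPase, had 869, 813, 799 and 928 normalised counts with siSOX9, against 443, 513 and 482 with siCtrl, and rose at a log2 ratio of 0.83 (adjusted p = 3.48e-04) in the authors' deposited table. IRF8, a factor best known from myeloid cells, had 152, 163, 139.8 and 180.3 with siSOX9, against 300.2, 275 and 280.2 with siCtrl, and fell at -0.84 (adjusted p = 0.00222) in the authors' deposited table. No library of either arm overlapped the other arm in GBP3 or IRF8. With siY14 the authors' deposited table had PARP10 at 0.67 (adjusted p = 0.0267) and HELZ2, a helicase and coactivator, at 0.66 (adjusted p = 0.0176), both higher. PNPT1, a mitochondrial ribonuclease, was at -0.64 (adjusted p = 0.00418) and TDRD7, a tudor domain protein, at -0.53 (adjusted p = 0.0294) in the authors' deposited table, both lower. RSAD2 and CXCL10, which respond strongly to interferon in other cells, had low values. RSAD2 had 11.8 with siSOX9 and 15.6 with siCtrl, and 5.34 with siY14 and 6.701 with siCtrl, while CXCL10 was listed at 0 in both deposited tables.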

How the data were processed

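Polyadenylated RNA of 13 DLD-1 samples was sequenced from stranded TruSeq libraries, per the labels' protocols. Reads were handled with HISAT2, TopHat2, Bowtie and SAMtools on build hg19, then with HTSeq and DESeq, going by the names (not their order) in the submitters' processing notes. Versions, and whether counting used strand, are not given in the sources used here. For each gene the authors deposited normalised read counts as arm means (a signal, reads divided by library size factors), their ratio (fold change), its log2 and a p-value with its adjusted value, per the file headers. The adjusted p of the authors' deposited tables equalled the Benjamini-Hochberg value over genes with reads.

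Arm means were printed with enough digits to recover whole reads per library for 14885 of 18747 genes with reads (79.4%) for siSOX9 and 12849 of 17706 (72.6%) for siY14. Where several sets of reads gave a mean, a set was taken only if, with a coefficient of variation of 17.3% between libraries, under 0.01 chance sets were expected. Limma-voom (limma 3.58.1, R 4.3.3) tested the recovered genes whose mean reached 10, using the authors' recovered size factors, and both tables jointly for differences between knockdowns. Shares of all genes given for limma-voom are shares of the recovered genes tested. The scripts (Python 3.11.15) were tested on simulated data. These held neither the siY14 library pairs nor the joint deviations of the deepest siSOX9 and siCtrl libraries. The threshold was an adjusted p of 0.05, and 0 columns of other samples were present. Levels per kb used GENCODE exons of GRCh38.

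Named are members that passed either test, the 5 largest increases and decreases by log2 ratio, the 8 highest means, the role leaders, and other pathway genes that passed the authors' test or transmit the signal, a few of which are not reported here. The members, lists and tests were chosen with earlier results of these data known. Reads of IFITM1, IFITM2 and IFITM3, of HLA-B and HLA-C, and of overlapping genes may have been split or lost in counting, and genes listed at 0, such as RBM8A, may have lost reads there.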

Additional observations from a re-analysis of the deposited data

Results flagged for a closer look

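In the siSOX9 arm, 3 members had 1 library far from the other 3, by the gap to its neighbour divided by the range, past the critical value of Dixon's test. The highest was IFIH1 (0.886), where the deepest library a stood above the rest. MX1 (0.881) had library d below the rest, and PSMB8 (0.835) had library a above. These are 3 of 64 arms examined, and chance flags about 1 in 20.

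The change against siCtrl differed between siSOX9 and siY14 in the limma-voom model of both tables for IFIT1 (log2 difference 1.62), ISG15 (-0.78), PARP9 (0.45) and SAMD9 (0.59). The knockdowns were made in different experiments, and knockdown and experiment cannot be told apart beyond the separate siCtrl samples.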

How the results depend on the processing

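No paired analysis was possible because the recovered libraries carry no replicate number. In the authors' deposited tables, members called with siSOX9 numbered 1 (2.17%, against 3.47% of all genes). They numbered 2 with p adjusted over genes with a mean of at least 10 or of at least 50 (SAMD9 and UBE2L6). Limma-voom on recovered reads called 5 (15.2%, against 21.6% of all genes). With siY14 the members called numbered 4 under all 3 adjustments (9.3%, against 9.16% of all genes, in the deposited one). Limma-voom called 11 (35.5%, against 27.8% of all genes). All-gene shares under the other adjustments are not given here. On the recovered reads, the siSOX9 count of 5 was 3 with no filter on the mean (7.69%, against 11.8% of all genes). It was 13 (39.4%, against 50.3% of all genes) with the depth class as a term, chosen after seeing the data. With 1 library left out it was 3 to 5 (9.38% to 15.2%, against 13.1% to 26.2% of all genes). The siY14 count of 11 was 0 with each pair summed (chosen after seeing the data) and 0 to 11 with 1 library left out, being 0 without siCtrl library a, 1 without siCtrl library b, 5 without siY14 library d and 7 without siY14 library b. The count of 4 members that differed between the knockdowns was 1 to 4 with 1 library left out. With siY14 the share of all genes called was 0.244% with each pair summed. It was 17.6% without siY14 library d, against 16.1% of members, and 21.4% without siY14 library b, against 22.6% of members. The cause of these moves was not tested, and fits with 1 library left out also hold fewer samples. The median log2 ratio of the members stayed between 0.02 and 0.05 with siSOX9 and between -0.13 and -0.08 with siY14 under the filters, pseudocounts and centring tried. No member called in limma-voom within a table reversed its sign in the fits tried. Of those not called, 11 of 28 with siSOX9 and 2 of 20 with siY14 did in at least 1 fit. Calls favour ratios that are large against their SE in the same reads, so this contrast cannot serve as support for them. The siY14 calls rest on 2 siCtrl libraries and on 4 siY14 libraries of 2 siRNAs, and counting error limits members with a mean under 10.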
